A study of Homo sapiens with 8 samples.

Results

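Transcripts of 10 genes for endothelial-restricted surface proteins were followed in TeloHAEC, a telomerase-immortalised line of human aortic endothelial cells: CLEC14A, ROBO4, CD34, ECSCR, EMCN, MMRN2, EGFL7, PLVAP, ADGRL4 and CD93. The genes were picked by symbol from a table of 34415 genes, in which all 10 had a row. There were 4 libraries labelled "TeloHAEC, PA supplied, Estradiol supplied" and 4 labelled "TeloHAEC, PA supplied, Control", all of genotype WT. Estradiol is the main estrogen, and PA is palmitic acid, a saturated fatty acid that was present in the medium of both groups, so no library shows the cells without it. The separate treatment field reads "PA-supplied" for the estradiol libraries and "Control" for the controls, and the groups were taken from the titles. The sources used here state neither doses nor times. No library of primary endothelial cells is part of the series. "Kept" below therefore means a gene at 1 FPKM or more in all 8 libraries. "Near absent" means a gene under 1 FPKM in all 8. FPKM is fragments scaled to gene length and library total, so these classes depend on the gene lengths used.

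These proteins are known as a molecular signature of vessel lining. CD93 and CLEC14A are transmembrane C-type lectins of the thrombomodulin family, and both bind MMRN2, a glycoprotein laid down in the matrix around endothelial cells. ROBO4 is the endothelial roundabout receptor, tied to vessel stability, ECSCR is a small transmembrane protein of endothelial migration and survival, and ADGRL4 is an adhesion G protein-coupled receptor of growing vessels. EGFL7 is secreted by endothelial cells into their matrix, and an intron of its gene holds the microRNA miR-126. CD34 and EMCN are sialomucins, heavily glycosylated coat proteins. CD34 marks small vessels and blood progenitors, and EMCN marks capillaries and veins more than arteries. PLVAP builds the diaphragms of endothelial fenestrae and caveolae.

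The promoters of 4 of the genes are shown as examples of the kept and the near-absent genes described next. ROBO4 and ADGRL4 were kept and moved in opposite directions in a pair of libraries, while EMCN and CD34 were near absent. Each line runs 5′ to 3′ from 250 bases before to 50 bases after a RefSeq start (GRCh38.p14), and capitals mark GGAA or its reverse complement TTCC, the core that ETS transcription factors bind.
ROBO4, chr11:124897816-124898115, minus strand: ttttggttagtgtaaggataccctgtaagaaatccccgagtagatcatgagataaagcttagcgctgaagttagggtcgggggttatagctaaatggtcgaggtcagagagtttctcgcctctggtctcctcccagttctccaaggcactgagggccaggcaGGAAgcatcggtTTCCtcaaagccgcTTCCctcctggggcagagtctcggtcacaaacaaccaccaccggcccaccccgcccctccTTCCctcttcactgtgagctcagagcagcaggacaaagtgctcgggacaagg
ADGRL4, chr1:79006681-79006980, minus strand: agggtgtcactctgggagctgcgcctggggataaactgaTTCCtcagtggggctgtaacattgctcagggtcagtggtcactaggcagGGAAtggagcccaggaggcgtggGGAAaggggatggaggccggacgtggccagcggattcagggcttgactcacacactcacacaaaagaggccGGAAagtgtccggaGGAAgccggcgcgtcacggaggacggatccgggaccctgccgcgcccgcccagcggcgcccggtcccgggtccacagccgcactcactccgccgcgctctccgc
EMCN, chr4:100517973-100518272, minus strand: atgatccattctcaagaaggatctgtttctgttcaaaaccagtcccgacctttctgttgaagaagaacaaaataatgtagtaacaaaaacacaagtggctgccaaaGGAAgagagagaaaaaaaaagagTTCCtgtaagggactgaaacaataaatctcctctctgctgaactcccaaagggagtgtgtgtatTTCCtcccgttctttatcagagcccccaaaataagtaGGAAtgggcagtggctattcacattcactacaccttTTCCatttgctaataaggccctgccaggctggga
CD34, chr1:207911076-207911375, minus strand: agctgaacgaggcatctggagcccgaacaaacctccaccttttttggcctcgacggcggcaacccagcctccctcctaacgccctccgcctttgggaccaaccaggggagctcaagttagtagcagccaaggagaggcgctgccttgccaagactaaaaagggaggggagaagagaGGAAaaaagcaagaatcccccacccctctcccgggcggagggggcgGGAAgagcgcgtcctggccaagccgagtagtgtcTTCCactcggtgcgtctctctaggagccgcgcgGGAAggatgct

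The 4 windows carried the ETS core a similar number of times, with 4 matches in ROBO4, 5 in ADGRL4, 5 in EMCN and 4 in CD34. GGAA on either strand was in 95.5% of 35116 RefSeq promoter windows of 300 bases, with a median of 3 matches, so its presence does not set these genes apart. Windows were listed for 9 of the 10 genes, without CD93, and EGFL7 had 2. Among the other members, matches numbered 6 in CLEC14A, 5 in MMRN2, 4 in ECSCR, 4 in PLVAP and 1 and 4 in the windows of EGFL7. The longer motif CCGGAA, which includes the core, was found in ADGRL4 but in no other member window, against 17.2% of all windows on either strand. GATAA on either strand was in the windows of ROBO4, EMCN, EGFL7, PLVAP and ADGRL4, against 22.7% of all windows. TATAAA was in none of the members' windows and in 11.5% of all. CpG dinucleotides ranged from 2 in EMCN and 3 in ECSCR to 25 in ADGRL4, around a median of 14 over all windows. A low CpG count was therefore found at EMCN, which was near absent, and at ECSCR, which was the highest member. These matches describe the letters of the windows and were not tested for binding.

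Of the 10 genes, 7 were kept, 1 stood at the 1 FPKM line and 2 were near absent. ECSCR was highest, at 182, 167, 177 and 149 FPKM in the estradiol libraries 1 to 4, against 172, 181, 140.5 and 188 FPKM in the control libraries 1 to 4. The control range enclosed the estradiol range, and the lowest library of each, estradiol 4 and control 3, stood below the other 6. By its mean over the 8 libraries ECSCR ranked 283 among all genes of the table.

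The lectin receptor CD93 measured 78.8, 78.7, 75.8 and 72.5 FPKM with estradiol, against 77.8, 79.5, 78.8 and 77.7 FPKM in controls. It was the most even member, with a coefficient of variation of 2.97% over the 8 libraries, against a median of 14.2% over the 10720 genes with a mean of at least 1 FPKM. Its relative CLEC14A measured 48.1, 45.9, 45.8 and 40.7 FPKM with estradiol and 55.1, 51.7, 43.3 and 55.1 FPKM in controls. For CLEC14A 3 of the 4 control libraries lay above every estradiol library, and control 3 lay below all but estradiol 4. Their common partner in the matrix, MMRN2, measured 21.6, 20.4, 21.0 and 17.7 FPKM with estradiol and 22.5, 21.5, 17.1 and 21.5 FPKM in controls. In RefSeq the MMRN2 gene overlaps SNCG, which encodes gamma-synuclein and averaged 9.87 FPKM. Neither strand use nor the handling of reads in the overlap is stated, so the effect of the overlap on the MMRN2 values is not known.

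ROBO4 measured 84.3, 80.0, 75.7 and 61.6 FPKM with estradiol and 95.1, 77.5, 57.5 and 83.5 FPKM in controls. The control libraries thus spanned a wider range than the estradiol libraries and enclosed it. ADGRL4 measured 50.7, 51.6, 57.4 and 79.9 FPKM with estradiol and 58.3, 57.6, 83.4 and 47.2 FPKM in controls. Here estradiol 4 and control 3 were the highest libraries of their groups, the reverse of ROBO4. The secreted EGFL7 measured 21.7, 18.9, 16.5 and 13.7 FPKM with estradiol and 26.2, 17.5, 13.2 and 19.0 FPKM in controls, and it varied most among the kept genes, with a coefficient of variation of 23.0%. The RefSeq row of miR-126 had no counterpart in the table, so that microRNA was not analysed here.

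**Figure D1:**
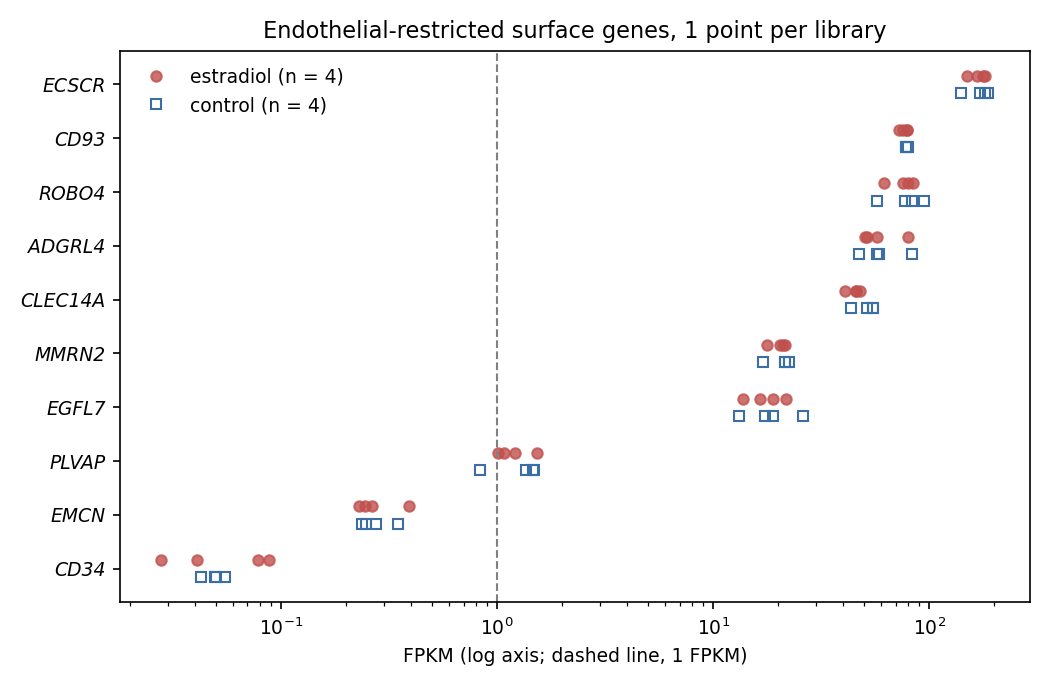
FPKM of the 10 surface genes on a log axis, with a filled circle for each of the 4 estradiol libraries and an open square for each of the 4 control libraries. From ECSCR to EGFL7 the points lie between 13.2 and 188 FPKM, PLVAP straddles the dashed line at 1 FPKM, and EMCN and CD34 lie to its left in both groups.

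PLVAP, the diaphragm protein, measured 1.08, 1.53, 1.21 and 1.01 FPKM with estradiol and 1.47, 1.48, 0.838 and 1.36 FPKM in controls, from 72 to 135 recovered reads a library. Only control 3 was under 1 FPKM, so without that library 8 of the 10 genes would count as kept. EMCN measured 0.265, 0.230, 0.245 and 0.391 FPKM with estradiol and 0.237, 0.248, 0.349 and 0.277 FPKM in controls, from 71 to 140 reads. Its highest libraries were again estradiol 4 and control 3. CD34 measured 0.0781, 0.0879, 0.0280 and 0.0411 FPKM with estradiol and 0.0498, 0.0493, 0.0424 and 0.0552 FPKM in controls. That is 9 to 25 reads a library, and 71 reads over the estradiol libraries (exact 95% Poisson interval 55.5 to 89.6) and 63 over the control libraries (48.4 to 80.6), intervals that cover counting error only. In bulk RNA a few cells with much CD34 transcript cannot be told apart from many cells with little.

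The levels fell into steps. The mean of ECSCR was 2.19 times that of CD93, and the ranges over the 8 libraries did not overlap. CD93 and ROBO4 did not differ beyond their spread, with CD93 higher in 4 of 8 libraries, and the ranges of ROBO4 and ADGRL4 and of ADGRL4 and CLEC14A overlapped too. CLEC14A stood 2.36 times above MMRN2 with no overlap, while MMRN2 and EGFL7 overlapped. The gap below EGFL7 was the widest of the order, with EGFL7 at 14.7 times the mean of PLVAP. PLVAP in turn stood 4.45 times above EMCN, and EMCN 5.19 times above CD34, both without overlap. Over the 8 libraries PLVAP had 876 recovered reads and EMCN 796, at recovered gene lengths of 2290 and 9235 bases. The step from PLVAP to EMCN, and the class of EMCN as near absent, thus rest mostly on the gene lengths used. CD34 had 134 reads at a length of 8164 bases. Among the 23471 genes above 0 in at least 1 library, 87.0% lay below EGFL7, 55.9% below PLVAP, 45.9% below EMCN and 34.3% below CD34.

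The split between kept and near-absent genes also ran through their gene families. CD34 averaged 0.0540 FPKM over the 8 libraries, while its sialomucin relative PODXL, podocalyxin, averaged 250.4 FPKM, 4639 times as much, and PODXL2 averaged 0.211 FPKM. In the thrombomodulin family, CD93 and CLEC14A were joined by THBD, thrombomodulin itself, with 16.5 to 22.4 FPKM, whereas CD248, known from pericytes and fibroblasts, was listed at 0 in all 8 libraries. ROBO4 was the highest roundabout receptor. ROBO3 averaged 3.35 FPKM, ROBO1 had 1 read over all libraries and ROBO2 was listed at 0.

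MMRN2 was accompanied by MMRN1, a related matrix glycoprotein, at a mean of 12.8 FPKM, and by EMILIN1 and EMILIN2 at 1.89 and 1.52 FPKM. ADGRL4 was followed by ADGRL2 at 7.34 FPKM and ADGRL1 at 0.173 FPKM, with ADGRL3 listed at 0. EGFL8, the closest relative of EGFL7, was listed at 0. Of possible partners, IGFBP7, a ligand of CD93, stood at 101 ± 6.02 FPKM with estradiol and 102 ± 6.31 FPKM in controls, and SLIT2, a roundabout ligand, at 7.28 ± 0.252 and 7.59 ± 0.582 FPKM (SD, n = 4 each). UNC5B, to which ROBO4 binds, stood at 4.40 ± 0.648 FPKM with estradiol and 4.58 ± 0.609 FPKM in controls (SD, n = 4 each). Of the 20 relatives and partners listed, 10 reached a mean of 1 FPKM and 0 of these passed limma (median log2 fold change -0.03, below 0 in 9).

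**Figure D2:**
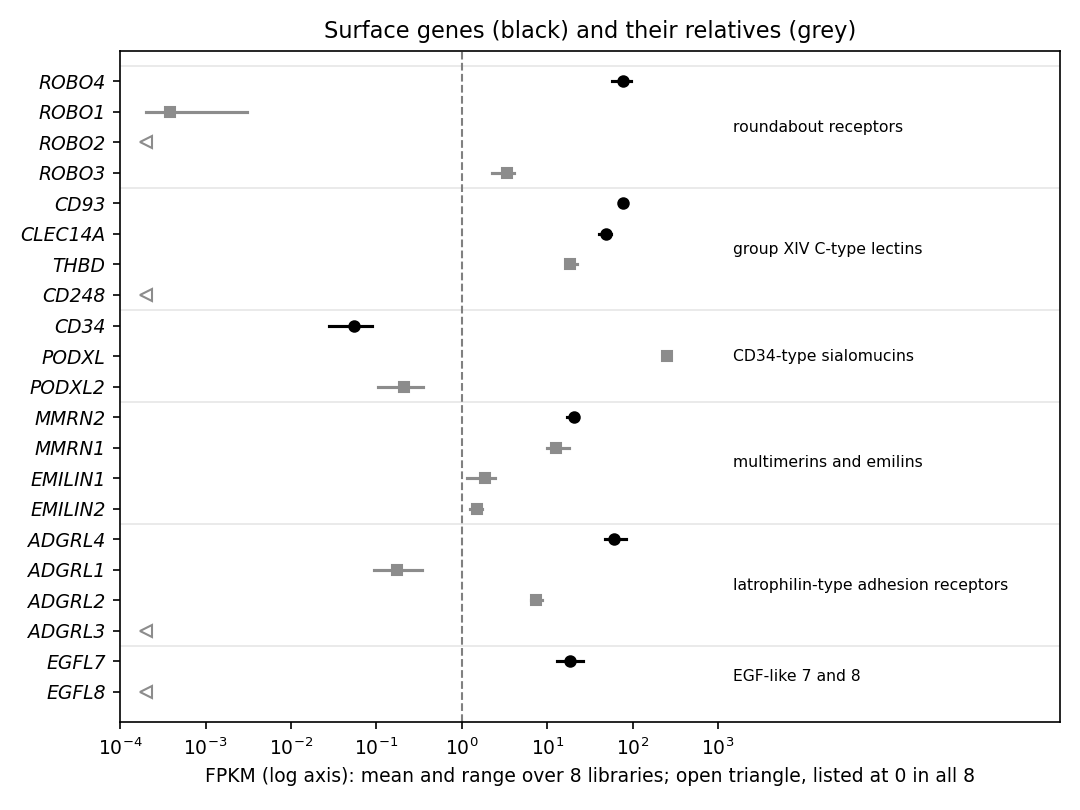
Mean (symbol) and range (line) of FPKM over the 8 libraries for the surface genes in black and their relatives in grey, on a log axis; the line of ROBO1 is drawn from the left edge of the symbols since its lowest value is 0. Each of ROBO4, CD93, MMRN2, ADGRL4 and EGFL7 is the highest of the relatives drawn with it, while CD34 is the lowest of its own group.

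For none of the 10 genes did estradiol and control differ beyond the spread between libraries. With limma on log2(FPKM + 1), 0 of the 8 members that passed the filter of a mean of 1 FPKM were called at an adjusted p under 0.05, against 0% of the 10720 genes tested. At an unadjusted p under 0.05 there were 0 members, against 0.243% of genes, and limma-voom on recovered reads also gave 0. The groups overlapped for every one of the 10 members, and they did not overlap for 0.532% of the genes tested. The labels do not say whether replicates were separate cultures, so these p-values measure the spread between libraries and that spread may be technical.

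The log2 fold changes of FPKM + 1 were small and all below 0. They ran from -0.18 ± 0.10 in CLEC14A to -0.0084 ± 0.11 in ECSCR (± SE, n = 4 each), with a limma adjusted p of 0.999989 for every member. The median over the 8 members was -0.04, beside -0.00047 over all genes tested, of which 50.5% were below 0. The members share libraries, so their common sign is not a count of independent results. For CLEC14A, at 45.1 ± 3.09 FPKM with estradiol and 51.3 ± 5.55 FPKM in controls (SD, n = 4 each), the 95% interval of the log2 fold change ran from -0.41 to 0.05. It ran from -0.20 to 0.13 for CD93, the most even gene, and from -0.51 to 0.37 for EGFL7, one of the most variable. EMCN and CD34 were under the filter and were compared by an exact two-sided permutation test over the 70 relabellings. CD34 averaged 0.0588 ± 0.0288 FPKM with estradiol and 0.0492 ± 0.00525 FPKM in controls (SD, n = 4 each, exact permutation p = 0.514). EMCN averaged 0.283 ± 0.0736 and 0.278 ± 0.0506 FPKM in estradiol and control libraries (SD, n = 4 each, exact permutation p = 0.943). Neither gene passed the test, which does not show that the groups are equal.

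**Figure D3:**
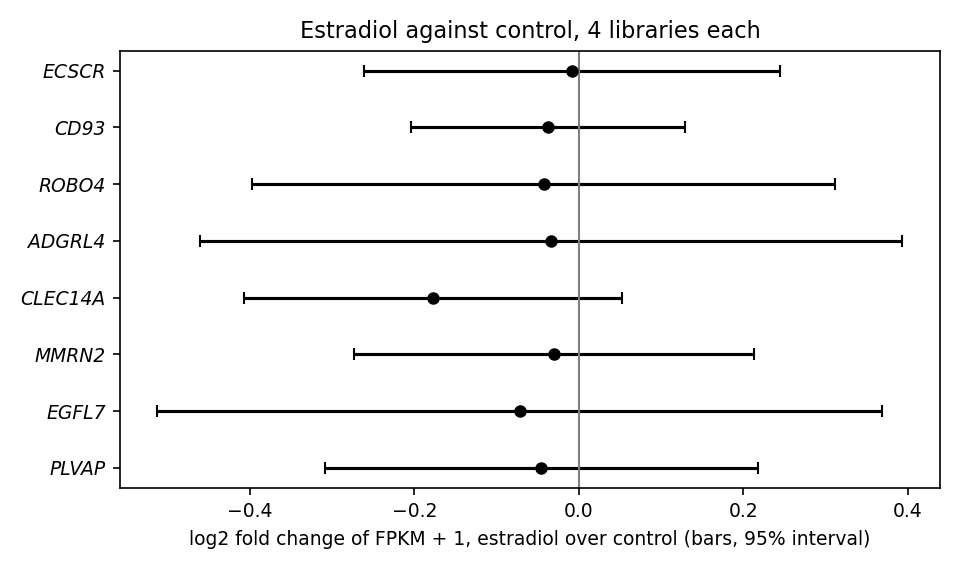
Log2 fold change of FPKM + 1, estradiol over control, for the 8 members tested, with 95% intervals from limma over 4 libraries in each group. All 8 intervals include 0, and the point for CLEC14A, at -0.18, lies farthest from it.

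The main variation of these genes ran between libraries, not between the groups. Estradiol 4 and control 3 stood apart from the other 6 libraries on the first principal component, which held 68.7% of the variance of the genes tested. In that pair of libraries 6 of the 10 members (ECSCR, ROBO4, CLEC14A, MMRN2, EGFL7 and PLVAP) lay below all other 6 libraries. ADGRL4 and EMCN lay above them, and CD93 and CD34 overlapped. For PLVAP the margin was narrow, with 1.01 FPKM (90 reads) in estradiol 4 and 1.08 FPKM (97 reads) in estradiol 1. ROBO4 had 61.6 and 57.5 FPKM in the pair against 75.7 to 95.1 FPKM in the other 6, and ADGRL4 had 79.9 and 83.4 FPKM against 47.2 to 58.3 FPKM. Among all genes tested the pair lay below the rest for 43.9% and above it for 34.6%, so the members took part in a shift that most genes showed.

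**Figure D4:**
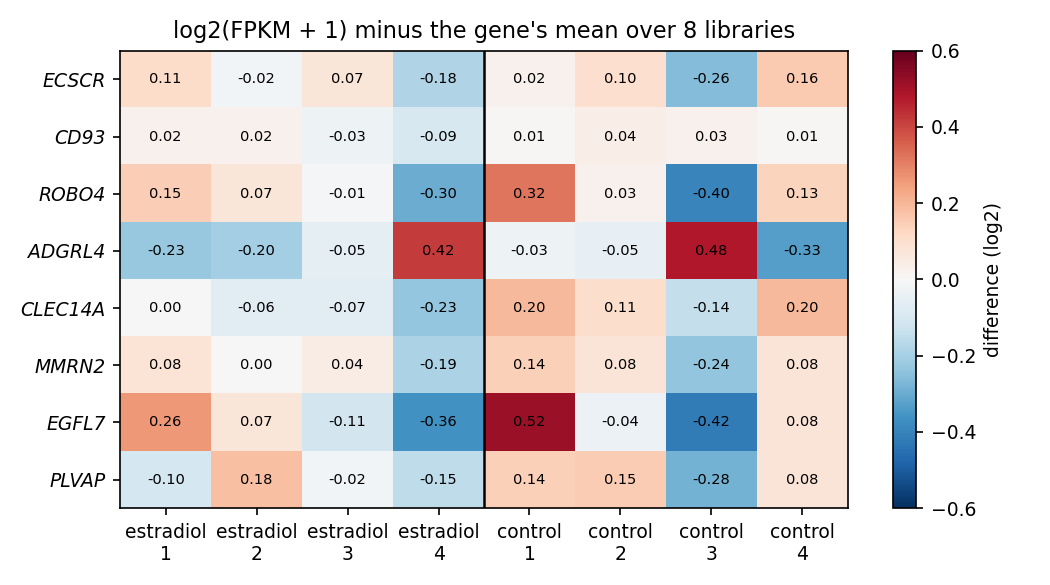
Log2(FPKM + 1) of the 8 members tested, each centred on its mean over the 8 libraries, with estradiol libraries left of the black line and control libraries right of it. The columns of estradiol 4 and control 3 are blue for all rows except ADGRL4, which is red in both, and CD93, which is near 0.

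The direction in the pair went with the base composition of the transcripts. The longest annotated transcript (GENCODE 29) had a GC content of 34.4% for ADGRL4 and 36.1% for EMCN, the members that were higher in the pair. It was 68.1% for EGFL7, 60.4% for PLVAP, 59.1% for ROBO4, 58.9% for CLEC14A, 57.6% for MMRN2 and 51.7% for ECSCR, all lower in the pair, and 50.9% for CD93 and 47.0% for CD34, which overlapped. Over the 7 kept genes the rank correlation between GC content and the log2 difference, pair minus the other 6, was -0.857, and over 10250 genes tested it was -0.885. These are correlations across genes that share the same 8 libraries, and genes are not independent replicates. The part of GC content in the members' differences was not tested.

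**Figure D5:**
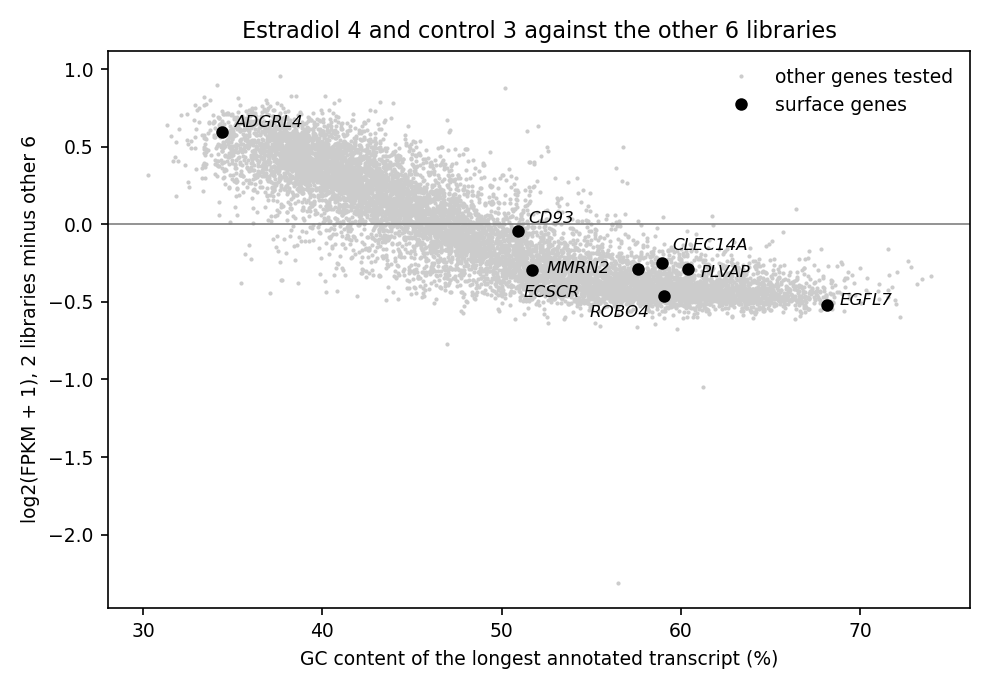
Difference of log2(FPKM + 1) between estradiol 4 with control 3 and the other 6 libraries (y axis), against the GC content of the longest transcript (x axis), for all genes tested with a transcript in grey and the 8 members in black. ADGRL4 lies at the low-GC, high-difference end and EGFL7 at the opposite end, both within the cloud of other genes.

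Without the pair, CLEC14A was the member whose groups no longer overlapped. It then averaged 46.6 ± 1.29 FPKM with estradiol and 54.0 ± 1.95 FPKM in controls (SD, n = 3 each). Its log2 fold change was -0.21, with a limma adjusted p of 0.992 and an unadjusted limma p of 0.00199. In the same 6 libraries the groups did not overlap for 9.52% of the genes tested, so 1 non-overlapping gene among the 8 tested members is close to that background. An unadjusted limma p under 0.05 was found for 3.88% of the genes tested. The share of genes with a p as small as that of CLEC14A was not counted. The limma adjusted p of 0.992 is the value here that sets that p against all 10720 genes tested. With all 8 libraries and a term for the pair in the model, CLEC14A had a log2 fold change of -0.18, an unadjusted limma p of 0.00205 and a limma adjusted p of 0.999956, against an unadjusted p of 0.115 without the term. That fit had 351 of 10720 genes at an unadjusted p under 0.05, against 26 without the term, and called 0. The pair was chosen from the data by its place on the first principal component, and no label names it a batch. In the 6 libraries without the pair, the log2 fold changes of the other 7 tested members ran from -0.11 in EGFL7 to -0.011 in CD93, and none was called.

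The 5 genes outside the set whose values followed the mean of the 8 tested members most closely over the 8 libraries were SETD4, SKI, ACLY, DUSP4 and ZFP64. Likeness was the root mean square difference of centred log2(FPKM + 1) values, which was 0.020 for SETD4, 0.023 for SKI, 0.027 for ACLY, 0.029 for DUSP4 and 0.030 for ZFP64, against a median of 0.147 over all genes. The mean profile of the members was lowest in the same pair of libraries, at -0.14 in estradiol 4 and -0.15 in control 3, and highest in control 1, at 0.16.

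Other endothelial transcripts around these genes were also partly kept. Of 35 other endothelial-enriched surface genes, 25 reached a mean of 1 FPKM, and 0 of these passed limma, with log2 fold changes below 0 in 20 and a median of -0.04. The 4 highest were TM4SF1, MCAM, PROCR and ESAM. TM4SF1, a tetraspanin-like protein, stood at 259 ± 14.7 FPKM with estradiol and 258 ± 23.2 FPKM in controls, and ESAM, an endothelial adhesion molecule, at 172 ± 24.6 and 176 ± 26.5 FPKM (SD, n = 4 each). The members were therefore not alone in being split between high and near-absent levels. The 10 with a mean under 1 FPKM were TMEM88, ADGRF5, VWF, JAM2, SELP, FLT4, APLNR, GPIHBP1, ACKR1 and STAB2. VWF, von Willebrand factor, averaged 0.296 FPKM over the 8 libraries, close to the level of EMCN. Markers of sinusoidal and lymphatic endothelium stood on both sides: STAB1 averaged 15.8 FPKM and LYVE1 10.3 FPKM, and both were kept, whereas STAB2 averaged 0.00042 FPKM and FLT4 0.0323 FPKM.

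Of 16 endothelial transcription factors, 14 reached a mean of 1 FPKM and 0 passed limma (median log2 fold change -0.03, below 0 in 9). The 4 highest were ETS1, HHEX, NR2F2 and SOX17. ETS1 stood at 37.3 ± 3.63 FPKM with estradiol and 34.4 ± 3.25 FPKM in controls (SD, n = 4 each), and the ETS factors ERG and FLI1 averaged 9.34 and 19.8 FPKM over the 8 libraries. PROX1, the factor of lymphatic endothelium, averaged 0.0524 FPKM. SOX18 also had a mean under 1 FPKM, at 0.622 FPKM with a range of 0.229 to 1.23 FPKM.

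Most markers of other cell types averaged under 1 FPKM, but several reached the levels of kept members. Of 12 blood cell markers 2 reached a mean of 1 FPKM, LAPTM5 at 49.5 FPKM and CD68 at 39.6 FPKM. TYROBP, CD3E, KIT, GATA1 and HBB were at 0. Summed levels were 82.0 to 94.4 FPKM with estradiol and 79.1 to 97.1 FPKM in controls. Of 12 smooth muscle and pericyte markers 5 did (MCAM, which endothelial cells also express, RGS5, SMTN, ACTA2 and TAGLN), with DES and KCNJ8 at 0 and sums of 204 to 266 FPKM with estradiol and 201 to 283 FPKM in controls. Among 10 fibroblast markers FAP alone did, with LUM at 0 and sums of 1.30 to 1.82 FPKM with estradiol and 1.44 to 1.95 FPKM in controls. Among 10 epithelial markers KRT19, KRT18, KRT7, KRT8 and CLDN7 did, at means of 48.9, 46.4, 17.7, 8.16 and 2.64 FPKM. Their list had sums of 97.2 to 134 FPKM with estradiol and 95.4 to 146 FPKM in controls, while EPCAM and CDH1 averaged 0.0041 and 0.0014 FPKM. No marker of these lists passed limma.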

How the data were processed

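Total RNA of TeloHAEC cells was sequenced as 4 estradiol and 4 control libraries. The authors deposited a table of FPKM values in which each library has its own column. The submitters' processing notes name fastp 0.20.1 and HTSeq; aligner, genome build, annotation and strand setting: not given in the sources used here.

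All 8 columns were used. Whole reads and gene lengths were recovered from the steps of each gene's values, and all 152348 values above 0 were rebuilt within a relative tolerance of 1e-06. Recovered depth ran from 33421051 to 39899258 reads per library. Genes with a mean of at least 1 FPKM were tested with limma 3.58.1 (R 4.3.3) on log2(FPKM + 1) with a mean-variance trend, two-sided, with Benjamini-Hochberg adjustment over 10720 genes. This scale understates changes of low genes. Members under the filter had an exact permutation test, which cannot go below p = 0.0286. Base composition was read from GENCODE 29 transcripts for 95.6% of the genes tested. The limma fit and the recovery were tested on simulated data. The data simulated for the fit had independent residuals and planted changes larger than those of the members. They held no shift like that of estradiol 4 and control 3, so the fit was not tested under such a shift. Python 3.11.15 was used for the other steps.

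The members and lists were chosen with earlier results of these data known. The text names all members, the 4 highest genes of each list and any past the threshold, the 5 genes most like the members, and relatives or partners of members. VWF and the other endothelial surface genes under 1 FPKM were added from the lists after their values were seen. So were STAB1, LYVE1, ERG, FLI1, PROX1, SOX18, EPCAM and CDH1. Alternatives were other pseudocounts, filters, scalings, a replicate block, a term for control 3 and estradiol 4 (a pair chosen from the first principal component, not a labelled batch), recovered reads and left-out libraries.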

Additional observations from a re-analysis of the deposited data

How the results depend on the processing

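In all 17 alternatives of the limma fit, 0 genes and 0 members passed, with 4 to 437 genes at an unadjusted p under 0.05. The range of kept genes was 7 to 8: PLVAP was added at a threshold of 0.5 FPKM, after rescaling to a common total and without control replicate 3. Of 159 member values under alternatives, 140 kept their direction and 19 reversed, none being called. ECSCR was 0.019 and EMCN -0.0077 under quantile normalization, and EMCN was -0.0084 without control replicate 3 and estradiol replicate 4 together; the cause was not tested. With 1 library left out, log2 fold changes ran from -0.18 to 0.12 in ADGRL4, -0.18 to 0.057 in ROBO4, -0.097 to 0.050 in ECSCR, -0.11 to 0.028 in MMRN2, -0.22 to 0.089 in EGFL7, -0.035 to 0.031 in EMCN and -0.00052 to 0.027 in CD34. CLEC14A stayed between -0.26 and -0.13 in these fits. With control replicate 3 and estradiol replicate 4 both left out, the exact test of the 2 members under the filter could not reach 0.05. With the replicate number as a block, 0 genes and 0 members passed, and 11 genes had an unadjusted p under 0.05. Deviations of libraries with the same number correlated at 0.62, 0.073, -0.48 and -0.74 for numbers 1 to 4. No estradiol library correlated best with the control library of its number. These deviations include the shift of estradiol 4 and control 3, so they cannot decide whether the numbers mark paired libraries. CD34 had the fewest reads of the members, 9 to 25 a library, and the median half-width of a 95% interval was 0.279 on the log2 scale.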
